A study of Mus musculus with 8 samples.

Results

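Intermediate filament genes were examined in RNA-seq libraries made from whole brains of adult mice. The 8 genes Gfap, Vim, Nes, Nefl, Nefm, Nefh, Ina and Prph were taken by gene symbol and are 8 of the 24343 genes in the deposited table. All 8 had a mean of at least 1 FPKM (sequenced fragments scaled to transcript length and library size), as did 13001 of all genes. The brains came from 3 C57BL/6NCrl mice aged 56 to 62 days, all kept under the same condition without a treatment or a genetic change. Mice 1 and 2 each gave 3 libraries and mouse 3 gave 2, and the sources used here do not state what separates the libraries of a mouse or the sex of the mice. Libraries of a mouse are not independent animals, so SDs are between mice (n = 3) and the tests between mice, which use the 8 libraries as replicates, describe these 3 animals only.

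Intermediate filaments are rope-like polymers that give cells tensile strength, and each cell type builds them from its own choice of related proteins. Myelinated axons of neurons carry a heteropolymer of the light, medium and heavy neurofilament proteins (Nefl, Nefm and Nefh) with α-internexin (Ina), and the long tails of the medium and heavy proteins project from the filament. Peripherin (Prph) joins the filaments of neurons that send axons out of the central nervous system, glial fibrillary acidic protein (Gfap) and vimentin (Vim) make up the filaments of astrocytes, vimentin is also abundant in vascular and ependymal cells, and nestin (Nes) is best known from neural stem cells and is kept by some vascular cells in the adult.

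Gfap and Prph have more than 1 transcript in the table, and sequence that sets transcripts apart is shown for the delta form of Gfap and for Prph because the reads were shared out between them. The main form of Gfap, alpha, and the delta form share their first exons and end in different coding sequence, which gives the proteins different tails. In the line for delta the lower-case letters are the last 44 coding bases shared with alpha (chr11:102891911-102891954, GRCm38, minus strand). Capitals mark the 122 coding bases found in the delta form only, at chr11:102891399-102891520.
Gfap delta: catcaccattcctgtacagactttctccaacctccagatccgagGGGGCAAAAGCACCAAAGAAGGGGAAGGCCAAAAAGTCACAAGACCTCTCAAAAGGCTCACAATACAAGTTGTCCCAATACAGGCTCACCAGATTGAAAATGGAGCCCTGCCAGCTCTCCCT

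Of the 3 transcripts of Prph, 2 keep a stretch of 96 bases that the third removes by splicing. The stretch lies at chr15:99056937-99057032 (GRCm38, plus strand) and is shown in capitals with 20 bases of exon on each side.
Prph retained stretch: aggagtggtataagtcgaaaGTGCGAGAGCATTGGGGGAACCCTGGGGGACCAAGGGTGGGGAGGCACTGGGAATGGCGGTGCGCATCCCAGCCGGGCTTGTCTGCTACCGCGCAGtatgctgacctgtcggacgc

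The light neurofilament gene Nefl was the most abundant of the 8, at 144 ± 9.82 FPKM (SD, n = 3 mice), and ranked 374 among all genes. Its level was 147, 138 and 137 FPKM in the libraries of mouse 1, 131, 132 and 144 FPKM in those of mouse 2, and 153 and 157 FPKM in those of mouse 3. Nefl also had a small spread, with a coefficient of variation between mice of 6.83% against a median of 12.3% over the 13001 genes.

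Nefm, the medium neurofilament gene, had a mean of 59.4 ± 18.1 FPKM, with 79.0, 62.7 and 60.8 FPKM in mouse 1, 102, 54.6 and 59.7 FPKM in mouse 2, and 40.1 and 37.3 FPKM in mouse 3. The first library of mouse 2 stood well above the other libraries of the same mouse, with deposited 95% bounds of 96.4 to 107 FPKM, and both libraries of mouse 3 were the lowest of the 8. The SD between libraries of a mouse was 17.6 FPKM, about as large as the SD between mice.

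Ina, which encodes the neuronal partner of the neurofilament proteins, stood at 45.9 ± 7.61 FPKM. Its level was 50.9, 52.4 and 51.6 FPKM in mouse 1, 47.4, 47.9 and 51.0 FPKM in mouse 2, and 40.6 and 33.9 FPKM in mouse 3. The libraries of mice 1 and 2 lay close together, and both of mouse 3 lay below them.

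Nefh, the heavy neurofilament gene, had the lowest level of the neurofilament genes, 33.9 ± 3.78 FPKM. The libraries gave 36.7, 33.9 and 35.8 FPKM in mouse 1, 40.2, 35.1 and 34.7 FPKM in mouse 2, and 29.7 and 29.5 FPKM in mouse 3. The order Nefl, Nefm, Nefh held in each of the 8 libraries.

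Prph, which marks neurons with peripheral axons, was near the floor of the tested range at 1.65 ± 0.0324 FPKM and ranked 12036 among all genes. It gave 1.80, 1.40 and 1.73 FPKM in mouse 1, 1.60, 1.85 and 1.61 FPKM in mouse 2, and 1.37 and 1.88 FPKM in mouse 3. The SD between libraries of a mouse, 0.228 FPKM, exceeded that between mice, and the 3 mice overlapped. Defining markers of sensory ganglion neurons were at or near 0, with Mrgprd listed at 0 in every library and Scn10a and Trpv1 at 0.0335 and 0.0213 FPKM on average.

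Gfap, the filament gene of astrocytes, had the second highest mean and the largest spread of the 8 genes, 72.6 ± 32.9 FPKM. Its level was 51.8, 54.1 and 52.4 FPKM in mouse 1, 49.8, 54.9 and 58.5 FPKM in mouse 2, and 101 and 120.4 FPKM in mouse 3. Mice 1 and 2 overlapped, and mouse 3 lay at 2.07 times their mean with no overlap.

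Vim, shared by astrocytes, ependymal cells and vessels, stood at 32.6 ± 4.53 FPKM. The libraries gave 32.9, 32.4 and 30.9 FPKM in mouse 1, 22.1, 31.1 and 31.7 FPKM in mouse 2, and 38.0 and 36.7 FPKM in mouse 3. The first library of mouse 2 was low, with deposited bounds of 19.9 to 24.3 FPKM that did not meet those of any other library.

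Nes, the gene of the stem cell filament nestin, was the lowest of the 8 at 1.60 ± 0.262 FPKM. It gave 1.74, 1.36 and 1.49 FPKM in mouse 1, 1.44, 1.34 and 1.35 FPKM in mouse 2, and 2.23 and 1.55 FPKM in mouse 3. The 2 libraries of mouse 3 thus enclosed the highest library of mouse 1. Among precursor markers, Sox2 and Dcx stood above Nes at 14.7 and 3.82 FPKM, and Top2a and Mki67 stood below it at 0.443 and 0.206 FPKM.

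**Figure D1:**
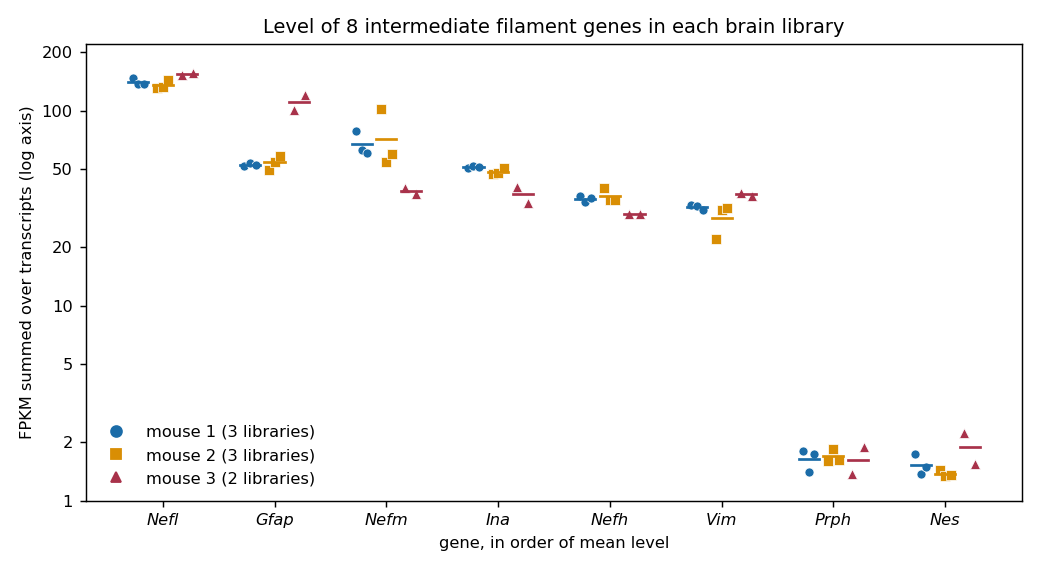
FPKM of each gene (log axis) in each of the 8 libraries, with a short line at the mean of each mouse. Nefl stood above all others, 5 genes lay between 22.1 and 120.4 FPKM, and Prph and Nes lay between 1.34 and 2.23 FPKM.

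FPKM is a level per length of transcript, so the genes can be set in order. Nefl exceeded Gfap by 1.98-fold with no overlap of their ranges, and Vim exceeded Prph by 19.7-fold, again with no overlap. The neighbours in between were not separated by their ranges. Gfap was above Nefm by 1.22-fold on average but in only 3 of 8 libraries, so that the order of this pair turned over with the mouse. Nefm was above Ina in 7 of 8 libraries (1.29-fold), Ina above Nefh in 8 of 8 (1.35-fold), Nefh above Vim in 6 of 8 (1.04-fold) and Prph above Nes in 7 of 8 (1.03-fold).

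The transcript models behind the levels differed from those of GENCODE vM21 for some members. The deposited model of Nefl has 2001 bases against 3380 in GENCODE, which extends 1358 bases past the deposited end, and that of Ina has 2259 against 3240 bases, with 981 past the end. The model of Vim has 1834 against 2193 bases, all of the difference at the start, and the remaining genes differed by at most 104 bases. The effect of these differences on the levels was not tested.

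Summed over the 8 genes, the intermediate filament signal was 391 ± 17.8 FPKM, and it was 383, 379 and 412 FPKM in mice 1, 2 and 3. Nefl, Nefm and Nefh together gave 60.7% ± 5.67 of it (SD, n = 3). Their share was 65.4, 62.3 and 62.9% in mouse 1, 69.1, 61.8 and 62.3% in mouse 2, and 54.9 and 53.5% in mouse 3. Gfap alone accounted for 13.8%, 14.4% and 26.8% of the sum in mice 1, 2 and 3, and Nefl for 36.7%, 35.9% and 37.6%. The sum thus varied less than its make-up, and in mouse 3 more of it came from Gfap and less from Nefm, Nefh and Ina, beside nearly the same share from Nefl.

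**Figure D2:**
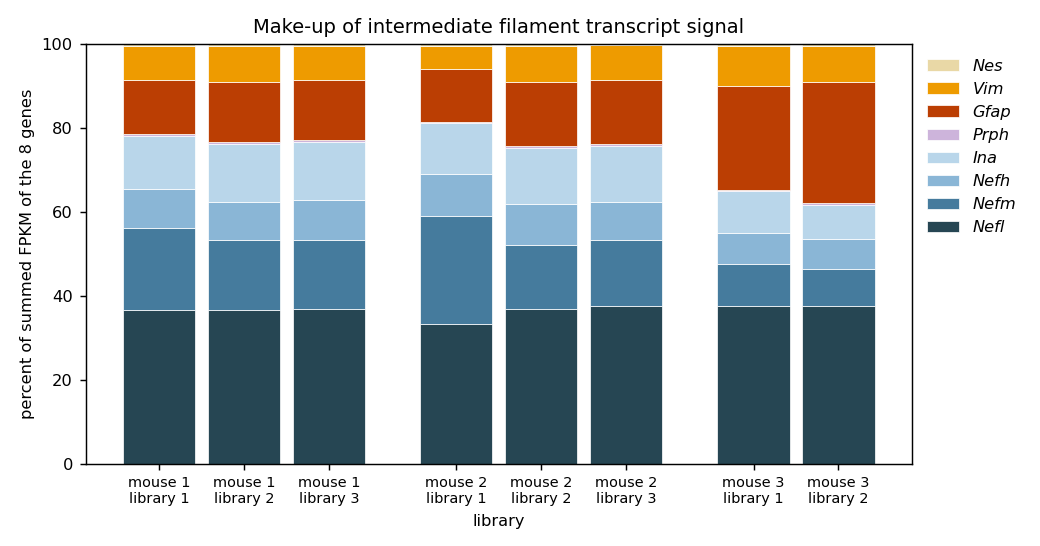
Share of each gene in the summed FPKM of the 8 genes (percent, stacked bars) in each library. The Gfap segment was 24.9% and 28.8% in the libraries of mouse 3 and at most 15.3% elsewhere, while the Nefl segment kept between 33.2% and 37.7%.

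Among transcripts, Gfap alpha (NM_010277) held 94.3% ± 0.475 of the Gfap signal, at 68.6 ± 31.5 FPKM. The delta form (NM_001131020) held 5.68% ± 0.475, at 4.02 ± 1.44 FPKM. Its share was 6.02, 6.30 and 6.03% in mouse 1, 4.70, 5.80 and 6.72% in mouse 2, and 5.61 and 4.74% in mouse 3, so the mice overlapped in their delta share. In FPKM both forms were higher in mouse 3, alpha at 105 FPKM against 49.5 and 51.2 FPKM in mice 1 and 2, and delta at 5.68 FPKM against 3.23 and 3.15 FPKM. The deposited bounds of delta reached 17.4 to 30.6% to each side of its value, against 5.20 to 6.92% for alpha.

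For Prph, effectively all of the signal was assigned to the spliced form (NM_001163589). Neither form that keeps the 96-base stretch exceeded 5.0e-05 FPKM in any library, and the deposited upper bounds of these forms were at most 0.108 FPKM. Coverage was shallow here, at no more than 4.25 reads per base on the spliced form, so this division rests on few reads. The other 6 genes have 1 transcript each.

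Differences between the mice were then tested across all genes on the log2(FPKM + 1) scale with the moderated F-test of limma and Benjamini-Hochberg adjustment, and the direction was read as mouse 3 minus the mean of mice 1 and 2. The F-test asks for any difference among the 3 mice, so the direction of a call was not itself tested. Of the 8 genes, 2 passed an adjusted p of 0.05, and 25.5% of all 13001 genes did, so the count of members was near that of genes in general. The background was 14.1% of genes called and higher in mouse 3, and 11.3% called and lower. Gfap was higher in mouse 3 by 1.03 (SE 0.094) on the log2 scale (adjusted p = 0.00511, limma), and Ina was lower, with a difference of -0.43 (SE 0.085, adjusted p = 0.0211, limma).

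The call of Gfap held under every alternative tried, with adjusted p values from limma between 0.00172 and 0.0421. That of Ina was lost without the second library of mouse 1 (adjusted p = 0.0558), the third of mouse 1 (0.0564) or the second of mouse 3 (0.121), all from limma. Fewer cells of a type and less RNA per cell cannot be told apart in such bulk samples.

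Nefm had the largest difference among the neuronal genes, -0.80 (SE 0.217), yet did not pass (adjusted p = 0.0591, limma). Without the high first library of mouse 2 it was -0.66 on the log2 scale and passed (adjusted p = 0.0118, limma), and without the second library of mouse 2 it was -0.89 and passed (adjusted p = 0.0442, limma). It did not pass without the third library of mouse 2 (adjusted p = 0.0609, limma) or any 1 library of mouse 1 (adjusted p from 0.0878 to 0.0925, limma). Without the first or second library of mouse 3 it was -0.85 or -0.75. Nefh differed by -0.27 (SE 0.081, adjusted p = 0.0766, limma). Differences of Vim, Nefl, Nes and Prph were 0.31, 0.16, 0.23 and -0.03, with limma's adjusted p values of 0.145, 0.230, 0.220 and 0.953. The 95% interval was -0.01 to 0.33 for Nefl and -0.26 to 0.20 for Prph.

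By ranges alone, 6 of the 8 genes had both libraries of mouse 3 outside the range of the other 6 libraries, where 48.3% of all genes tested did. Gfap, Vim and Nefl lay above that range and Nefm, Nefh and Ina below it. On the TPM scale 4 of the 8 did, Gfap above and Nefm, Nefh and Ina below, where 57.0% of all genes did.

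Mouse 3 also differed from the others in whole-library measures, which stand beside all of these results. The summed FPKM of all genes was 384885 and 409889 in its libraries and 295541 to 345572 in the other 6, with 1.31 to 2.02 gigabases read on transcripts per library. The deviation of a gene's level from its mean over the mice was related to transcript length. Spearman coefficients over genes were 0.269 to 0.527 in the libraries of mice 1 and 2 and -0.330 and -0.577 in those of mouse 3. Such deviations offset one another between the mice, so the opposite signs describe mouse 3 relative to the others only. Differences between the mice were therefore also computed after scaling to TPM (the same sum of values in each library) and after removing the length trend.

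Scaling to TPM moved the median difference of all genes from 0.02 to -0.23 and turned the split of all calls from 1835 higher and 1475 lower in mouse 3 to 806 higher and 4840 lower. On that scale, 43.5% of 12988 genes were called, 6.21% higher and 37.3% lower in mouse 3, and 4 of the 8 members were. Gfap remained higher in mouse 3 by 0.73 (adjusted p = 0.00259, limma on TPM). Ina, Nefm and Nefh were called lower, with differences of -0.72, -1.09 and -0.56 (adjusted p = 0.00329, 0.0166 and 0.00978, limma on TPM). Relative to the median of all genes on that scale, all 3 were still below. Nefl changed sign, from 0.16 to -0.14 (adjusted p = 0.423 with limma on TPM), so no direction is given for it. Vim and Nes moved to 0.02 and 0.04 on that scale (adjusted p = 0.376 and 0.790, limma on TPM).

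With the length trend removed, 3 of the 8 genes were called, against 20.5% of all genes (11.0% higher and 9.51% lower in mouse 3). Gfap was higher by 1.01 (adjusted p = 0.00172, limma), Ina lower at -0.51 (adjusted p = 0.0139, limma) and Nes, whose transcript of 6126 bases is the longest of the set, higher by 0.40 (adjusted p = 0.0270, limma). Nefm stayed at -0.78 without passing (adjusted p = 0.103, limma) and Nefh moved to -0.20 (adjusted p = 0.251, limma).

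**Figure D3:**
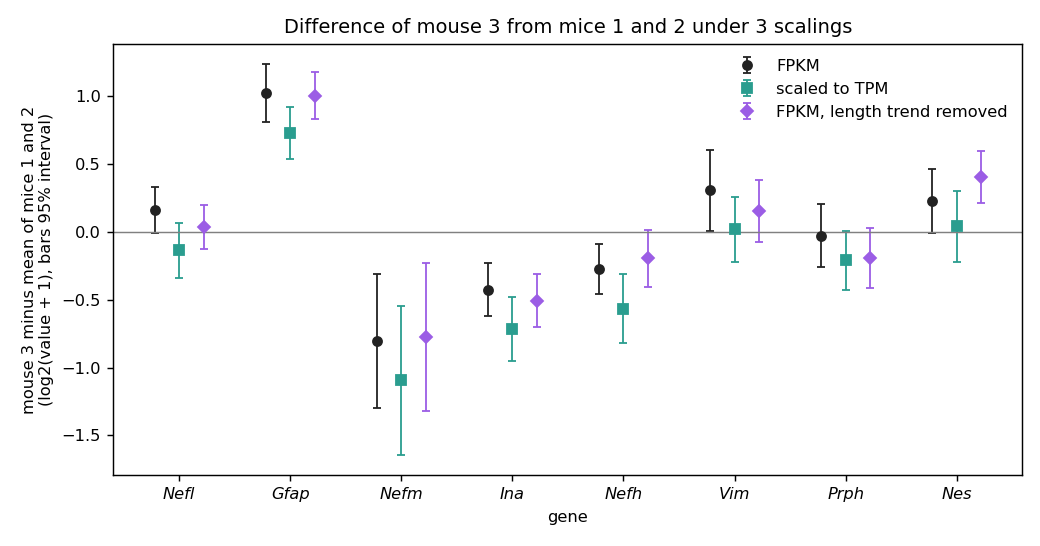
Mouse 3 minus the mean of mice 1 and 2 on the log2(value + 1) scale for each gene, from FPKM, TPM and FPKM with the length trend removed, with 95% intervals from limma. Gfap lay above 0 and Nefm and Ina below 0 under all 3 scalings, while Nefl lay on either side of 0.

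Ratios between genes of the same library do not depend on the scaling of that library. They were compared between the mice with exact permutation tests over 280 groupings of the libraries (the smallest possible p is 0.00357), adjusted over 6 ratios. Vim to Gfap was 0.635, 0.599 and 0.589 in mouse 1, 0.443, 0.568 and 0.543 in mouse 2, and 0.377 and 0.305 in mouse 3. It differed by -0.72 on the log2 scale (exact permutation p = 0.00357, adjusted p = 0.0214), so Vim was lower per unit of Gfap in mouse 3. With 1 library left out the difference ran from -0.88 to -0.57. Fewer groupings were then possible, and the exact permutation p was the smallest they allow (0.00952 or 0.0143) in the 5 cases that dropped a library of mice 2 or 3, and over all 8 cases the adjusted p values ran from 0.0286 to 0.114.

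Among the neuronal genes, Nefl served as the reference. Ina to Nefl was between 0.346 and 0.380 in the 6 libraries of mice 1 and 2 and was 0.266 and 0.216 in mouse 3 (exact permutation p = 0.0179, adjusted p = 0.0429). Nefh to Nefl was 0.250, 0.246 and 0.261 in mouse 1, 0.306, 0.265 and 0.241 in mouse 2, and 0.194 and 0.188 in mouse 3 (exact permutation p = 0.0214, adjusted p = 0.0429). Nefm to Nefl was 0.538, 0.455 and 0.442 in mouse 1, 0.775, 0.413 and 0.415 in mouse 2, and 0.262 and 0.238 in mouse 3, which did not pass (exact permutation p = 0.0429, adjusted p = 0.0643). With 1 library left out, Nefh to Nefl differed by -0.49 to -0.40 (exact permutation adjusted p from 0.0286, without library 3 of mouse 2, to 0.171) and Ina to Nefl by -0.75 to -0.45 (exact permutation adjusted p from 0.0571 to 0.171).

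The deposited model of Nefl is shorter than those of Nefm and Nefh, at 2001 against 3230 and 3992 bases. With the length trend removed, the difference in Nefh to Nefl shrank from -0.45 to -0.24 and no longer passed (exact permutation adjusted p = 0.0911), whereas that in Ina to Nefl was -0.56 and passed (exact permutation adjusted p = 0.0429). The ratios of Prph to Nefl and Nes to Vim overlapped between all mice (exact permutation p = 0.450 and 0.936).

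**Figure D4:**
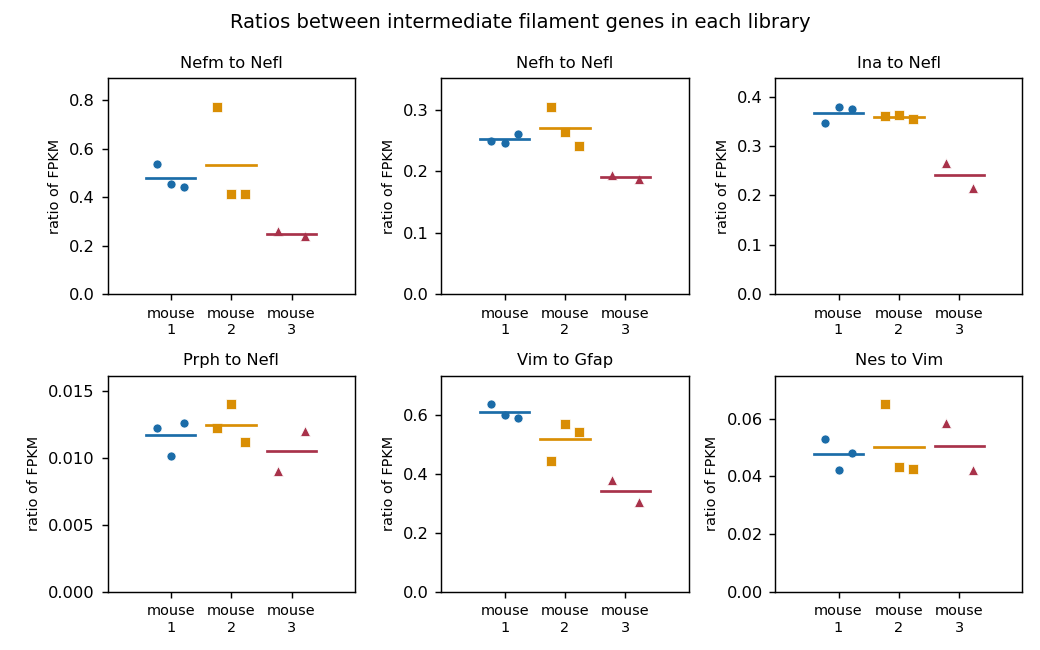
Ratio of FPKM between pairs of genes in each library (points), with a line at the mean of each mouse and axes from 0. Both libraries of mouse 3 lay below the other 6 in the ratios to Nefl of Nefm, Nefh and Ina and in Vim to Gfap, and within the others in Nes to Vim.

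Other genes of astrocytes were also higher in mouse 3. All 6 astrocyte markers (Aqp4, Aldh1l1, Slc1a2, Slc1a3, Gja1 and S100b) were called and higher in mouse 3 on the FPKM scale, where 14.1% of all genes were. With TPM 1 of the 6 was called higher (6.21% of all genes), and with the length trend removed 6 were (11.0% of all genes). The summed level of the 6 markers was 634, 658 and 982 FPKM in mice 1, 2 and 3, or 1.52-fold higher in mouse 3. Library sums ran from 627 to 675 FPKM in mice 1 and 2 and from 969 to 995 FPKM in mouse 3.

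Set against this sum, Gfap amounted to 8.32% and 8.26% in mice 1 and 2 and 11.3% in mouse 3, and its libraries ran from 7.85 to 8.67% in the former and were 10.4 and 12.1% in the latter. From FPKM, only S100b, which encodes a calcium-binding protein, had a difference of like size among the 6, 1.00 on the log2 scale (adjusted p = 0.00699, limma). The other 5 lay between 0.45 and 0.53. Using TPM, S100b was at 0.70 and Gfap at 0.73, and the rest lay between 0.16 and 0.23. After removal of the length trend, S100b was at 0.81 and Slc1a2 at 0.76, against 1.01 for Gfap. The rest then lay between 0.51 and 0.62. The percentages of Gfap rest on FPKM without removal of that trend. Vim against the same sum was 5.05%, 4.29% and 3.81% in mice 1, 2 and 3. Its first library of mouse 2, at 3.48%, lay below both libraries of mouse 3, at 3.92 and 3.69%, so mice 2 and 3 overlapped. The part of astrocyte content in the differences of Gfap and Vim was not tested.

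**Figure D5:**
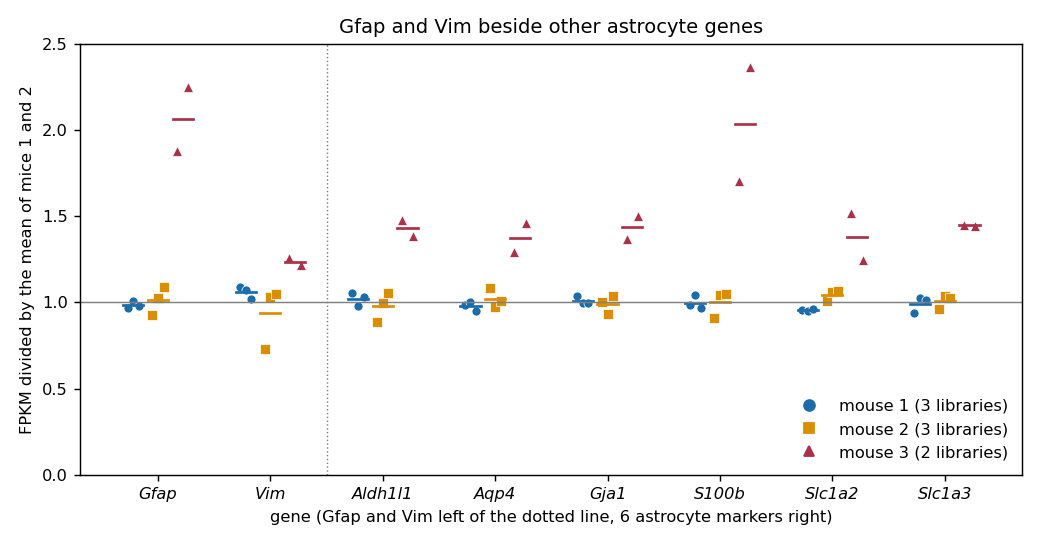
FPKM of Gfap, Vim and 6 astrocyte markers in each library, divided by the mean of mice 1 and 2 for that gene, with a line at the mean of each mouse. Gfap in mouse 3 lay at 1.88 and 2.25, S100b at 1.71 and 2.37, and the other markers at 1.24 to 1.52.

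Markers of the other cell types that use vimentin or nestin filaments went in different directions. The summed level of 5 endothelial markers was 72.9, 67.3 and 108 FPKM in mice 1, 2 and 3 (Ly6c1 called higher, 1 of 5, though not with the length trend removed, where its adjusted p from limma was 0.0730), and that of 6 mural cell markers 46.2, 47.4 and 69.5 FPKM (Rgs5 called higher, 1 of 6). Ependymal markers summed to 9.97, 9.15 and 15.5 FPKM (Foxj1, Ccdc153 and Tmem212 called higher, 3 of 4). Of these only Ccdc153 was called with TPM and only Foxj1 with the length trend removed. Over all genes, 14.1% were called higher in mouse 3 and 11.3% lower on the FPKM scale. The shares were 6.21% and 37.3% with TPM, and 11.0% and 9.51% with the length trend removed. The sums were 31.8, 30.2 and 31.5 FPKM for leptomeningeal fibroblast markers (0 of 5 called by limma, 1 at an unadjusted p under 0.05, and 2 called lower with TPM), 20.01, 21.7 and 19.5 FPKM for precursor markers, and 7.71, 7.87 and 4.61 FPKM for tanycyte markers. Of 3 precursor markers tested, Dcx, a gene of young neurons, was called and lower, as was the 1 tanycyte marker tested, Col25a1. Most of the tanycyte sum was Col25a1, at a mean of 6.095 FPKM, while Rax and Scn7a stood at 0.0405 and 0.595 FPKM. That sum thus follows 1 gene and is not read as a level of tanycytes.

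On the neuronal side, 6 general markers summed to 1912, 1826 and 1657 FPKM, and Snap25 was the largest part at 1056 FPKM. Of the 6, 2, Syt1 and Rbfox3, were called by limma and lower in mouse 3, where 11.3% of all genes were. With TPM 4 were called lower (37.3% of all genes), and with the length trend removed 3 were (9.51%). Syt1, a synaptic vesicle gene, differed by -0.73 (adjusted p = 0.00629, limma) and Rbfox3, which encodes NeuN, by -0.49 (adjusted p = 0.0103, limma). Map2 and Stmn2 differed by 0.13 and 0.04, and Snap25 and Tubb3 by -0.12 and -0.14, all without passing. A list of 5 markers of large projection and brainstem neurons summed to 219.5, 208 and 309.5 FPKM. Most of that difference lay in Pvalb, the parvalbumin gene, at 106, 99.3 and 181 FPKM (called higher, 1 of 5, where 14.1% of all genes were). The paper also lists Pvalb as a marker of inhibitory neurons in the isocortex, hippocampal formation and other areas. The sum is therefore not specific to large projection neurons. Slc6a5 and Glra1 of this list differed by -0.13 and -0.25 without passing and were called lower with TPM, and with the length trend removed 0 of the 5 were called, Pvalb having an adjusted p of 0.131 (limma). Markers of cranial motor and autonomic neurons summed to between 4.14 FPKM, in mouse 3, and 5.10 FPKM, in mouse 2, with 0 of 3 called by limma (1 at an unadjusted p under 0.05), and with TPM Chat and Slc5a7 were called lower. Their part in the levels of the neurofilament genes was not tested.

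Tissue that adjoins the brain or lies in its vessels and ventricles was checked by its markers. Beside the counts below, 14.1% of all genes were called higher in mouse 3 and 11.3% lower on the FPKM scale. With TPM these shares were 6.21% and 37.3%, and with the length trend removed 11.0% and 9.51%. The Schwann cell gene Prx was at 0.182 FPKM, although Pmp22 and Drp2 of the same list, which are not confined to Schwann cells, stood at 16.7 and 8.77 FPKM (0 of 2 called by limma, 1 at an unadjusted p under 0.05, and 1 called lower with TPM). Of the sensory ganglion list only Calca was high enough to be tested, and it was called higher in mouse 3 by 0.51 (adjusted p = 0.0214, limma), but differed by 0.09 with the length trend removed (adjusted p = 0.607, limma). Pituitary markers summed to 2.41, 2.60 and 2.30 FPKM, mostly from Pomc at a mean of 1.575 FPKM, with Prl and Gh at 0.165 and 0.369 FPKM. Only Pomc was tested, and 0 of 1 was called by limma (1 at an unadjusted p under 0.05). With the length trend removed Pomc was called, with a difference of -0.29 (adjusted p = 0.0266, limma). In FPKM its level in mouse 3, 1.71, lay between those of mice 1 and 2, 1.13 and 1.89. Choroid plexus markers summed to 534, 431 and 500.3 FPKM (Kl called and lower, 1 of 5, and 2 with TPM). Blood markers summed to 618, 612 and 849 FPKM (Hbb-bt, a globin gene with near-identical copies, called and higher, 1 of 5). With the length trend removed Hbb-bt was still called higher. Hba-a1, the highest of the blood genes at 463.5 FPKM, was then called lower, at -0.34 (adjusted p = 0.0299, limma).

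The wider intermediate filament family was weakly represented. Of 5 further cytoplasmic members, 2 reached the tested range. By limma 0 were called, where 25.5% of all genes were (1 at an unadjusted p under 0.05). With TPM 1 was called lower, where 37.3% of all genes were. Synm, whose product synemin joins vimentin and desmin filaments, was the highest of these further members at 6.02 ± 0.388 FPKM. Des, the filament gene of muscle, was at 0.677 FPKM.

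Among the nuclear lamins, which line the inner nuclear membrane, 0 of 3 were called by limma on the FPKM scale (2 at an unadjusted p under 0.05), and 2 were called lower with TPM and 1 with the length trend removed. Lmna was the highest, at 11.5, 10.1 and 7.17 FPKM in mice 1, 2 and 3 (adjusted p = 0.0642, limma). Of 52 keratin genes in the table, 7 reached the tested range and 0 were called by limma (3 at an unadjusted p under 0.05, and 1 called lower with TPM and 1 with the length trend removed). Krt222 stood above the rest at 17.0 ± 0.981 FPKM and was the only keratin gene above 5 FPKM. Beside the lamin and keratin counts, 25.5% of all genes were called on the FPKM scale. Called lower were 37.3% of all genes with TPM and 9.51% with the length trend removed.

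Proteins that tie filaments to other structures were measured in a list of 8, of which 4 were tested. By limma 0 were called, where 25.5% of all genes were (1 at an unadjusted p under 0.05). With TPM 1 was called lower, where 37.3% of all genes were. The spectraplakin genes Dst and Macf1, which link filaments, actin and microtubules, stood at 20.1 ± 1.74 and 16.6 ± 1.32 FPKM, and Plec, which encodes plectin, at 7.02 ± 1.06 FPKM. Desmosomal and epidermal linkers (Dsp, Evpl, Ppl and Eppk1) were below 1 FPKM.

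The genes whose profile over the 8 libraries was nearest to that of a member were sought among 5949 genes with at least 10 FPKM, by the root mean square difference of centred log2(FPKM + 1). For Gfap these were the ribosomal protein genes Rps9 (0.0368) and Rpsa (0.0467) with Sparc (0.0467), a matrix protein gene of glia and vessels. Rps9 stood at 230.2, 236 and 488 FPKM in mice 1, 2 and 3, so its step between mice was as large as that of Gfap. For Vim they were Rnf187 (0.041), G6pc3 (0.0484) and Fgfr3 (0.0494), a receptor gene expressed in astrocytes.

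Nefl lay nearest to the myelin gene Cldn11 (0.0341), Spg7 (0.036) and Sdc3 (0.0372), and Nefh to Tmem57 (0.0202), Gspt1 (0.0279) and Anp32a (0.0385). Close neighbours were common for the flat profiles, since 12.8% of the genes lay within 0.1 of Nefl and 6.34% of Nefh, against 2.62% for Vim and 1.01% for Gfap. These distances describe 8 libraries of 3 mice that also share the length trend.

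Nefl (chr14:68083884-68087737, plus strand) and Nefm (chr14:68119545-68125004, minus strand) lie side by side, with a gap of 31807 bases and 0 genes of the table between them. A second GENCODE form of Nefm, not among the deposited transcripts, ends in an exon at chr14:68082590-68084970 that covers 1108 bases of the first exon of Nefl on the other strand, counted from the GENCODE start of Nefl at 68083863. Whether strand was used in counting is not given in the sources used here, so it is not known if reads of the 2 genes were told apart there.

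Other members also overlapped neighbours. Nefm shared 1253 bases with A230070E04Rik (29.5 ± 6.30 FPKM), which stood at 33.7, 32.6 and 22.3 FPKM in mice 1, 2 and 3 and so was lowest in the mouse where Nefm was lowest. Nefh (chr11:4938756-4948064) shared 544 bases with Ap1b1 (36.2 ± 2.01 FPKM) and Ina (chr19:47014698-47024346) shared 492 bases with Nt5c2 (15.2 ± 0.545 FPKM), each on the opposite strand. Vim (chr2:13574311-13582826), Gfap (chr11:102887336-102897200), Nes (chr3:87971093-87980451) and Prph (chr15:99055174-99058978) overlapped no other gene of the table. How the reads in the shared bases were divided was not tested.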

How the data were processed

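Whole brains of 3 mice were measured by bulk RNA-seq (8 libraries). RNA was isolated with an RNAqueous Micro kit and libraries made with a Kapa mRNA HyperPrep kit. The authors deposited FPKM per RefSeq transcript with 95% confidence bounds, a status and a coverage signal (reads per base). TopHat, Cufflinks and mm10 are named in the submitters' processing notes, and their versions, settings and strand use are not given in the sources used here. No counts are used, so depth is given as coverage times length, 1.31 to 2.02 gigabases per library, and precision as the SD between mice or the deposited bounds. Values marked FAIL (8 in the table) included 0 of the members. Locus starts count from 0 and were raised by 1.

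FPKM was summed over the transcripts of a gene and averaged per mouse and then over the mice. The mice were compared with limma 3.58.1 (R 4.3.3), a moderated F-test on log2(FPKM + 1) over the 13001 genes that averaged 1 FPKM or more, and p values were adjusted over all of them after Benjamini and Hochberg. Fold changes on this scale understate those of low genes. Ratios were tested by exact two-sided permutation of log2 ratios over libraries. The length trend was removed by loess (span 0.5). The tests were also run on simulated data, for limma with the gene means and within-mouse spread of these libraries. Alternatives were pseudocounts of 0.1 and 0.5, no filter, a filter at 5 FPKM, TPM, upper quartile scaling, the highest transcript, a replicate block, leaving out each library and, added after the data were seen, a mean-dependent spread in limma.

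Named were the 8 genes, pathway genes with at least 5 FPKM, the 3 nearest profiles of Gfap, Vim, Nefl and Nefh, marker genes beside them, and overlapping genes. Des and the low linkers were named after their values were seen. The members and lists were chosen with earlier results of these data known. Some items are not reported here. Sequences were read from GRCm38 with GENCODE vM21.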

Additional observations from a re-analysis of the deposited data

Results flagged for a closer look

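Of 17 measures examined over the 8 libraries (the level of each gene, the 6 ratios, the neurofilament share, the summed level and the delta share of Gfap), 2 had a library set apart from the other 7, with a gap to its neighbour that exceeded Dixon's 95% critical share of the range. Chance flags about 1 in 20. Vim in the first library of mouse 2 was 22.1 FPKM, where the next lowest library had 30.9 FPKM (gap 0.553 of the range). The same library was the highest for Nefm and Nefh, and the shallowest of the 8 at 1.31 gigabases. Nes in the first library of mouse 3 was 2.23 FPKM, where the next highest had 1.74 FPKM (gap 0.552 of the range), and its deposited bounds of 1.90 to 2.56 FPKM overlapped those of the next, 1.44 to 2.04 FPKM.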

How the results depend on the processing

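The count of all genes that differed between the mice, 3310, was 5646 with TPM and 2171 with the highest transcript of each gene, and it ran from 126 to 3873 when 1 library was left out, lowest without the second library of mouse 3. The count of members called, 2, was 4 with TPM and 1 to 3 when 1 library was left out. Gfap alone was called without libraries 2 or 3 of mouse 1 or library 2 of mouse 3. Nefl reversed with TPM (-0.14). Without a library, Prph ran from -0.17 to 0.11 and changed sign. The neurofilament share ran from 59.9 to 61.1% and the delta share of Gfap from 5.51 to 5.85% when 1 library was left out. Of 6 ratios, 3 passed, 0 did with the replicate block, and 0 to 2 did when 1 library was left out, where the smallest exact permutation p rises to 0.0278 with the block and to 0.00952 or 0.0143 without a library. Nes to Vim ran from -0.20 to 0.28 without a library. Between mice, correlations of deviations were 0.003 to 0.107 for libraries of equal number and -0.135 to 0.0645 for those of unequal number. Deviations were centred within each mouse, which ties these values together, so they do not decide whether library numbers pair the mice. With the replicate block, limma called 2995 genes (2035 higher and 960 lower in mouse 3) and 3 members, with Nefm at -0.89 (adjusted p = 0.0221, limma). Nes passed with the length trend removed (0.40), and Nefm with a filter at 5 FPKM (-0.80). Why these values moved was not tested. FPKM gives no counts, so depth limits are read from the deposited bounds, which are widest relative to the value for Prph and Gfap delta.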
